A study of Mus musculus with 8 samples.

Results

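The genes described here are the protein-coding mouse genes whose symbols start with Eif or Eef and a digit, the translation initiation factors and the translation elongation factors, with the Y-linked copy Eif2s3y left out. The rule used symbols alone and no measured value, and it found 67 genes among the 55385 in the deposited table. Of these, 54 are Eif genes, which include the oocyte form Eif4e1b and the repressors Eif4enif1, Eif4ebp1, Eif4ebp2 and Eif4ebp3, and 13 are Eef genes. A total of 63 had enough reads to be tested. The other 4 had next to none: Eif4ebp3 and Eef1akmt3 had 0 reads in all 8 libraries, Eef1a2, the form of the elongation factor known from muscle and nerve, had 2 reads in 1 library, and Eef2kmt had 3 to 6 reads in each GV library and 0 or 1 in each MII library.

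The study sequenced poly(A)-selected RNA from pooled mouse oocytes grown in vitro out of embryonic stem cells, in 4 groups of 2 libraries. Oocytes were taken at the germinal vesicle stage (GV, full-grown, still in meiotic prophase) or as eggs at the second metaphase (MII, matured and waiting for fertilisation). One stem cell line, called native in the labels, was XX from the start; the other, called sex-converted, was an XX line that the series title traces to male mice. MII was compared with GV within each line, and the lines with each other at each stage.

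The groups shared most of their history. All 8 libraries came from stem cells of strain C57BL/6 x 129/SvJ that carried the transgenes Blimp1-mVenus and Stella-ECFP. Each kind of XX cell was represented by 1 line, named H18 (native) and N2DsRed4XO63R2 (sex-converted) in the column names. The origin of a line and any other difference between these lines, such as the DsRed and XO in the latter name, thus cannot be told apart. Germ cell-like cells made from them were aggregated with somatic cells of female gonads from embryonic day 12.5, cultured for 21 days and then grown in follicles for 11 days with FSH, with BMP15 and GDF9 in the medium at the start. The GV groups were then stripped of cumulus cells with enzymes and a glass capillary in the presence of dibutyryl-cAMP and IBMX, which hold oocytes in prophase. The MII groups were first matured for 16 hours with FSH, EGF and hCG, stripped with hyaluronidase and picked by their first polar body. In both stages the oocytes with Stella-ECFP fluorescence were kept, with 31 to 158 oocytes per library at GV and 35 to 58 at MII.

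A translation factor is a protein that helps the ribosome without being part of it. eIF4E binds the mRNA cap and eIF4G bridges it to eIF4A, a helicase that opens the leader, and to eIF3, which carries the small ribosomal subunit; eIF2 brings the initiator tRNA and is recharged with GTP by eIF2B, and eIF2 whose alpha subunit has been phosphorylated by stress kinases blocks eIF2B. eEF1 then brings each further tRNA and eEF2 moves the ribosome along, unless eEF2 kinase inactivates eEF2. Full-grown oocytes do not transcribe, so maturation and the first steps after fertilisation run on stored mRNAs, of which some are translated as their poly(A) tails lengthen and others lose their tails and are degraded. Because the libraries were made from RNA captured by its poly(A) tail, a change in the amount of an mRNA and a change in its tail cannot be told apart here, and nothing measured here reports on protein.

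Libraries held 10306471 to 14999003 reads. Levels are given as CPM, the read count scaled by the library total and by a TMM factor (1.33 to 1.43 at GV and 0.714 to 0.733 at MII). A change from GV to MII is thus relative to the other mRNAs, and fewer oocytes and less mRNA per oocyte cannot be told apart. All 10 oocyte markers examined, Gdf9, Bmp15 and the zona pellucida genes among them, were present in all 8 libraries. Of 5 blood and endothelium genes, the globin genes Hba-a1 and Hbb-bt had 0 reads and Cdh5 and Ptprc 0 to 6, while Pecam1 had 58.9 to 88.4 CPM at GV and 189.7 to 275 at MII. The 8 stroma and theca genes summed to 1.11 to 2.09 CPM at GV and 2.19 to 6.35 at MII, with Col1a2 at 0 in all libraries and Acta2 at 0 reads at GV and 5 to 35 at MII. The 14 granulosa and cumulus markers summed to 56.4 to 78.1 CPM at GV and 116 to 138 at MII, most of it Cyp19a1, Kitl and Nr5a2. Native MII replicate 1 stood apart in their median, which was 3.20 CPM against 0.618 to 1.10 in the other MII libraries and 0.417 to 0.828 at GV. It had the highest MII value in 8 of the 14, such as Hsd17b1 (33 reads against 0 to 1), and not in the others, such as Kitl (222 reads against 213 to 376). The same library also had the highest MII value in 6 of the 10 oocyte markers and in 35.0% of all genes tested. Of the 39 members that were lower at MII in the native line, 25 (64.1%) had their highest MII value in that library, against 39.2% of all genes lower at MII in that line, so values without it are given beside the results it moves. The part of RNA from other cells in the change from GV to MII was not tested. At GV, sex-converted replicate 1 and native replicate 2 did not overlap sex-converted replicate 2 and native replicate 1 in 47 of 63 members, against 57.8% of all genes tested.

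As a share of each library, the 67 genes were lower at MII than at GV. They took 1.30% to 1.39% of reads in the 4 GV libraries and 0.762% to 0.810% in the 4 MII libraries. On a scale per length (TPM, the read count scaled by exon length and to a fixed total per library), their sum was 12792 to 13167 at GV and 6744 to 6985 at MII. Neither measure uses the TMM factors, which were larger at GV than at MII. TPM levels and sums are thus not on the scale of the CPM fold changes below, where MII stands higher relative to GV. The share held by the 13 Eef genes fell further. They summed to 1813 to 1999 TPM at GV and to 229 to 306 TPM at MII.

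**Figure D1:**
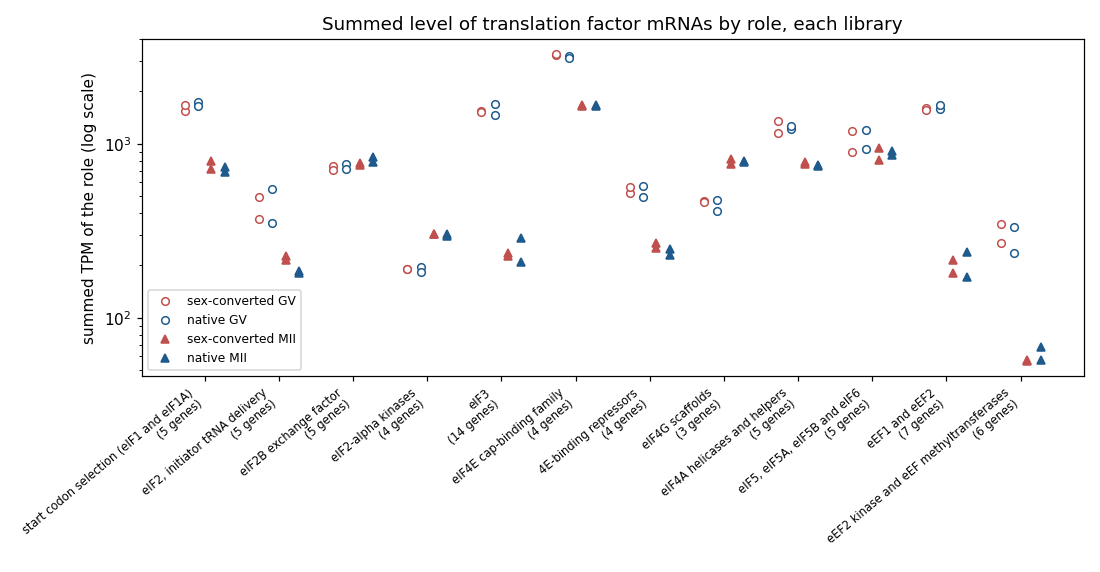
Summed TPM of the genes of each of 12 roles (vertical axis, log scale) in each of the 8 libraries; circles are GV, triangles MII, blue the native line and red the sex-converted line. TPM does not use the TMM factors. On this scale the eIF3 genes and the eEF1 and eEF2 genes lie far lower at MII than at GV. The eIF4G scaffolds and the eIF2-alpha kinases lie higher, and the sum of the eIF2B genes hardly differs.

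Gene by gene, the members went both ways, with more falling than rising. In the native line 16 of the 63 tested members rose and 39 fell from GV to MII at an adjusted p under 0.05 (edgeR), where 29.6% of all 14929 genes tested were called higher and 35.7% lower. In the sex-converted line 15 rose and 36 fell, where 29.3% of all genes were called higher and 36.2% lower. In either direction 87.3% and 81.0% of the tested members were called, beside 65.2% and 65.5% of all genes. The higher calls, 25.4% and 23.8% of the members, are thus close to the share among all genes, while the lower calls, 61.9% and 57.1%, are a larger share. Over the tested members the median log2 fold change was -1.40 in the native line and -1.39 in the sex-converted line, beside -0.31 and -0.35 over all genes tested. When counts were scaled by library totals alone, the medians over all genes moved to -1.22 and -1.28, and the members split as 9 higher and 43 lower in the native line and 8 higher and 44 lower in the sex-converted line. The GV and MII libraries did not overlap in CPM in 60 of 63 members in the native line, against 83.5% of all genes, and in 57 in the sex-converted line, against 84.8%.

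The lines were then set side by side: 14 members were higher in both, 36 were lower in both, 5 were called in the native line only, 1 in the sex-converted line only and 7 in neither, and 0 were called in opposite directions. For the 6 called in 1 line, the interaction term called no difference between the lines. Each line has its own GV and MII libraries, but both changes come from 1 fit with a shared estimate of the spread. As given above, the GV libraries also paired across the lines. Agreement between the lines is thus not shown to be independent replication. Of the 12534 protein-coding genes tested, 3642 were higher in both lines and 4204 were lower in both. Calls in the same direction in both lines were thus also frequent among other genes. The 36 lower in both are 57.1% of the 63 tested members, a larger share than among all protein-coding genes.

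**Figure D2:**
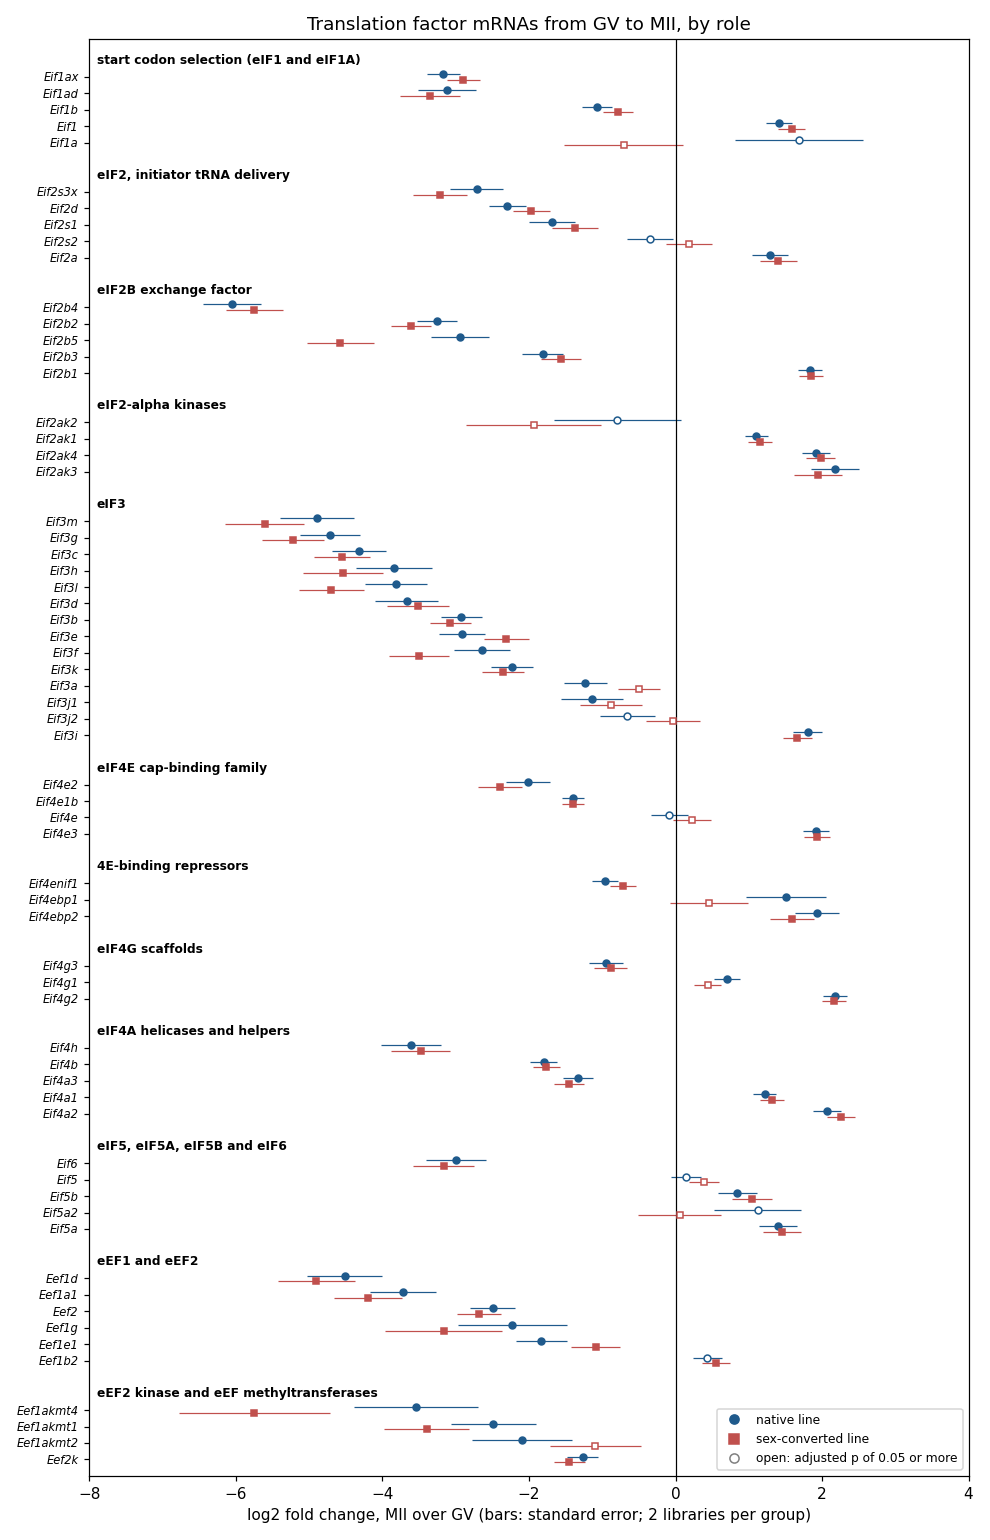
Log2 fold change from GV to MII (horizontal axis) of the 63 tested members, grouped by role, in the native line (blue circles) and the sex-converted line (red squares), with bars of 1 standard error; filled symbols have an adjusted p under 0.05. Nearly all eIF3 subunits and Eef genes lie left of 0, while Eif3i, Eif2b1, Eif4e3, Eif4g2, Eif4a2 and 3 of 4 eIF2-alpha kinases lie right of 0.

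Since the libraries depend on poly(A) tails, the annotated 3′ ends of the members were read for the elements that bear on tail length. The nuclear poly(A) signal is the hexamer AATAAA or ATTAAA, and the cytoplasmic polyadenylation element, bound by CPEB proteins in maturing oocytes, was searched as TTTTAT or TTTTAAT. Both were searched on the mRNA strand only and separately, so TTTTAAT and a following AATAAA may share bases. The windows below are from GRCm38 (transcripts of GENCODE M21), 30 bases each, in the sense of the mRNA, with the motif in capitals. The hexamers are matches of sequence, and their use as poly(A) signals was not tested. The first set shows the oocyte cap-binding gene (Eif4e1b, which fell) and the eIF2B pair that parted most (Eif2b1 rose and Eif2b4 fell), around their hexamers:
Eif4e1b, chr13:54788427-54788456 (+ strand): tttctgtatctaAATAAAcacttctggaac
Eif2b1, chr5:124570215-124570244 (- strand): ctgagtgctgggATTAAAgatgtgtaccat
Eif2b4, chr5:31187569-31187598 (- strand): ggaacaagggtcAATAAAaagcttactccc

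In the second set, Eif1ax had no hexamer in its last 40 bases. This set shows the element where members carried it in their last 100 bases, in 1 member that rose (Eif4e3) and 2 that fell (Eef1a1 and Eif1ax):
Eif4e3, chr6:99625215-99625244 (- strand): attttgagaaaaTTTTATttttgaacttta
Eef1a1, chr9:78478507-78478536 (- strand): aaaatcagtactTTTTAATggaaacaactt
Eif1ax, chrX:159389887-159389916 (+ strand): attcagtggatgTTTTATgctgcacaaata

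The element stood in the last 100 bases of the 3′ UTR in 7 of the 63 tested members (11.1%) and in 19.0% of all 12534 protein-coding genes tested. Among members it was found in 1 of 14 that were higher in both lines and 3 of 36 that were lower in both (7.14% and 8.33%). Over all protein-coding genes the shares were 32.9% of those higher in both lines and 9.75% of those lower in both. In the last 200 bases it was found in 13 members (20.6%), 2 of the 14 and 7 of the 36 (14.3% and 19.4%, beside 45.8% and 16.0% over all protein-coding genes). A poly(A) hexamer in the last 40 bases was found in 13 of the 14 higher members and 23 of the 36 lower ones (92.9% and 63.9%, beside 82.9% and 68.1%). The 3′ UTRs of the higher members had a median of 846 bases and those of the lower members 396.5 bases, beside 1394 and 645 bases over all genes called the same way. The counts of members with the element are too small to compare the rising with the falling ones. The median 3′ UTR was longer in the higher members than in the lower ones, as it was over all genes.

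At the other end of the mRNA, many translation factor genes are known to start with a C followed by a run of pyrimidines, the mark by which mTOR controls their translation. Of the members, 51 had an entry in the RefSeq promoter table (build GRCm38.p6), and 2 had a C followed by at least 4 pyrimidines exactly at the annotated start (3.92%, beside 3.08% of 9921 tested genes). Both are shown, from 10 bases before the start, with the run in capitals:
Eif2s3x, chrX:94212632-94212661 (- strand): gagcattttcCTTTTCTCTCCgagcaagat
Eif3f, chr7:108934405-108934434 (+ strand): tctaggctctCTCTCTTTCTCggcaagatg
Such a run began within 10 bases of the start in 17 members (33.3%, beside 36.7% of all genes). Eif2s3x and Eif3f were both lower at MII in both lines.

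Initiation begins with eIF2, and its genes mostly fell. Of 5 genes for tRNA delivery 3 fell and 1 rose in each line (60% and 20%). Of 5 eIF2B genes 4 fell and 1 rose (80% and 20%). Over all genes tested 35.7% fell and 29.6% rose in the native line, and 36.2% and 29.3% in the sex-converted line. Eif2s1, the alpha subunit that stress kinases phosphorylate, had 87.9 and 62.6 CPM at GV and 25.9 and 20.7 at MII in the native line, and 65.9 and 79.0 at GV and 19.5 and 36.3 at MII in the sex-converted line. Eif2s1 fell by 1.69 on the log2 scale in the native line (SE 0.31, adjusted p = 0.000655) and fell by 1.37 in the sex-converted line (SE 0.31, adjusted p = 0.00238). Eif2s3x, the X-linked gamma subunit, had 49.2 and 41.5 CPM at GV and 8.40 and 5.32 at MII in the native line, and 43.2 and 54.9 at GV and 7.12 and 3.52 at MII in the sex-converted line. Eif2s3x fell by 2.72 on the log2 scale in the native line (SE 0.36, adjusted p = 5.45e-05) and fell by 3.21 in the sex-converted line (SE 0.37, adjusted p = 1.99e-05), or -3.80 in the latter without MII replicate 1. Both genes were lower in each MII library than in any GV library. Eif2s2, the beta subunit, was not called: it had 502 and 246 CPM at GV and 306 and 284 at MII in the native line, and 229 and 391 at GV and 338 and 369 at MII in the sex-converted line, so that its GV libraries spanned the MII values, and without native GV replicate 2 it was called lower in the native line (-0.77, adjusted p = 0.0217). Eif2d, an alternative initiator-tRNA factor, fell in both lines, and Eif2a, another factor that can bring initiator tRNA, rose by 1.29 and by 1.40 on the log2 scale; with library totals its changes were 0.38 and 0.47 and neither was called.

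The eIF2B complex showed the widest split of any role. eIF2B is a complex of 5 kinds of subunit. Of these, epsilon (Eif2b5) holds the exchange activity, and alpha (Eif2b1), beta and delta form the part that senses phosphorylated eIF2. Eif2b4, the delta subunit, had 111 and 109 CPM at GV and 2.39 and 0.810 at MII in the native line, and 106 and 104 at GV and 2.52 and 1.43 at MII in the sex-converted line. Every MII library was far below every GV library, at 7 to 25 reads against 1544 to 2144. It fell by 6.05 on the log2 scale in the native line (SE 0.40, adjusted p = 7.21e-07) and fell by 5.75 in the sex-converted line (SE 0.39, adjusted p = 8.92e-07). These are 66.4-fold and 53.7-fold falls, the largest in either line among members with at least 10 CPM at GV. Without native MII replicate 1 the native value was -7.08. Eif2b1 went the other way, with 227 and 198 CPM at GV and 801 and 717 at MII in the native line, and 188 and 202 at GV and 692 and 714 at MII in the sex-converted line. All 4 MII libraries lay above all 4 GV libraries, and Eif2b1 rose by 1.84 on the log2 scale in the native line (SE 0.16, adjusted p = 3.61e-06) and rose by 1.85 in the sex-converted line (SE 0.16, adjusted p = 3.55e-06).

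The remaining eIF2B genes fell. Eif2b2 fell by 3.25 on the log2 scale in the native line (SE 0.27, adjusted p = 2.33e-06) and fell by 3.61 in the sex-converted line (SE 0.28, adjusted p = 1.53e-06). Eif2b3 fell less, by 1.81 and by 1.56 on the log2 scale. Eif2b5, the least abundant of the 5 at GV, had 12.7 and 13.9 CPM at GV and 1.81 and 1.62 at MII in the native line, and 15.3 and 9.31 at GV and 0.438 and 0.571 at MII in the sex-converted line. The makeup of the eIF2B mRNAs thus changed, while their sum in TPM moved little. TPM does not use the TMM factors, so this sum is not on the scale of the CPM values and fold changes above. The sum was 710.3 to 770 TPM at GV and 757 to 836 TPM at MII. Eif2b1 made up 48.9% to 52.5% of it at GV and 98.0% to 98.4% at MII, and Eif2b4 25.5% to 27.6% at GV and 0.110% to 0.355% at MII. These shares do not depend on how libraries are scaled.

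**Figure D3:**
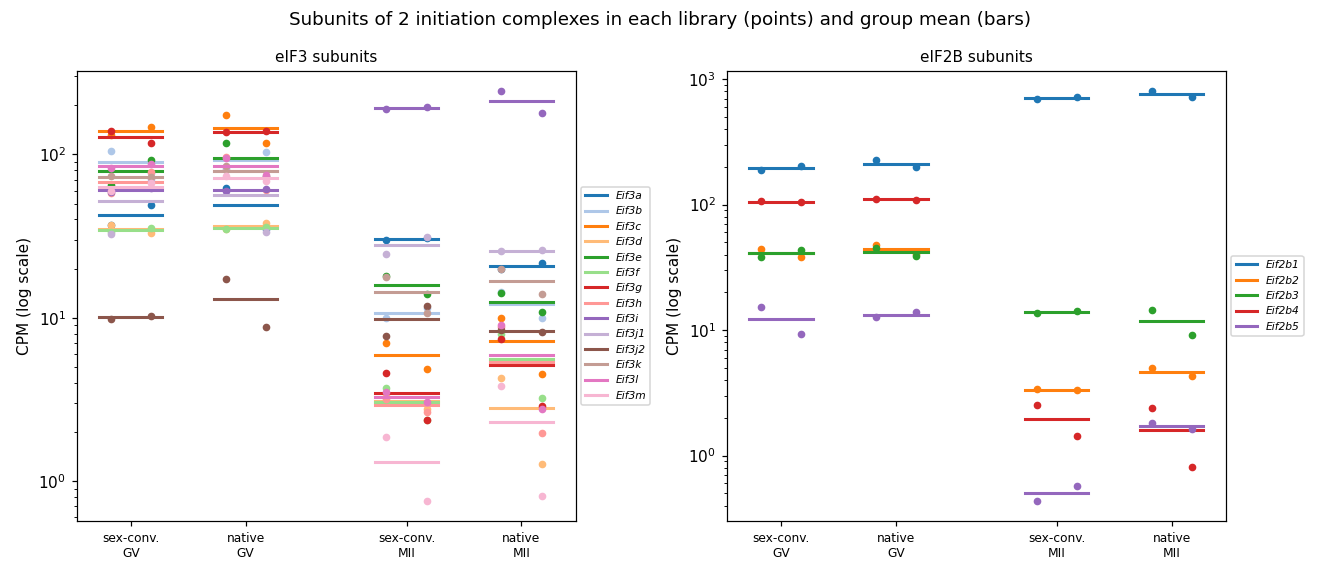
CPM (log scale) of the 14 eIF3 genes (left) and the 5 eIF2B genes (right) in each library (points) with group means (bars), for sex-converted and native oocytes at GV and at MII. In each complex 1 gene, Eif3i or Eif2b1, is higher at MII than at GV and the other subunits are lower or not called.

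The 4 kinases of eIF2-alpha did not follow eIF2: 3 rose (75%) and 0 fell in each line. Over all genes tested 29.6% rose in the native line and 29.3% in the sex-converted line. Eif2ak4 (GCN2), which responds to amino acid shortage, had 115 and 87.0 CPM at GV and 404 and 361 at MII in the native line, and 87.1 and 99.2 at GV and 363 and 372 at MII in the sex-converted line. Eif2ak4 rose by 1.92 on the log2 scale in the native line (SE 0.19, adjusted p = 8.49e-06) and rose by 1.98 in the sex-converted line (SE 0.19, adjusted p = 6.98e-06). Eif2ak1 (HRI), which responds to heme and to mitochondrial stress, had 150.0 and 146 CPM at GV and 322 and 314 at MII in the native line, and 141 and 146 at GV and 326 and 315 at MII in the sex-converted line. Its rise of 1.10 and 1.16 became 0.19 and 0.22 with library totals and was then not called. Eif2ak3 (PERK), the kinase of the endoplasmic reticulum, was scarce, with 5.07 and 5.07 CPM at GV and 26.1 and 19.9 at MII in the native line, and 7.15 and 4.24 at GV and 22.6 and 21.1 at MII in the sex-converted line. Eif2ak3 rose by 2.18 on the log2 scale in the native line (SE 0.33, adjusted p = 0.000146) and rose by 1.94 in the sex-converted line (SE 0.32, adjusted p = 0.000303). Each of these 3 kinases had higher values in every MII library than in any GV library. Eif2ak2 (PKR), which is activated by double-stranded RNA, had 9 to 18 reads per GV library and 1 to 5 per MII library and was not called (log2 fold changes of -0.79 and -1.94, adjusted p = 0.437 and 0.0837). Its values ran from -1.43 (without native MII replicate 1) to -0.43 and from -2.77 (without sex-converted MII replicate 2) to -1.46 when 1 library was left out, and with library totals it was called lower in the sex-converted line (-2.84, adjusted p = 0.0155).

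eIF3, the largest initiation factor, fell in nearly all its subunits. Of its 14 genes 12 fell and 1 rose in the native line, and 10 fell and 1 rose in the sex-converted line. The falls are 85.7% and 71.4% of the eIF3 genes, beside 35.7% and 36.2% of all genes tested. Over the 10 genes other than Eif3i, Eif3a, Eif3j1 and Eif3j2, the median level was 69.4 to 90.3 CPM in the GV libraries and 2.90 to 8.93 CPM in the MII libraries, the highest of these being native MII replicate 1. Those 10 genes fell in both lines, with log2 fold changes of -4.90 to -2.23 in the native line and -5.61 to -2.31 in the sex-converted line. Eif3a, Eif3j1 and Eif3j2 had smaller changes: Eif3a and Eif3j1 fell in the native line only (-1.23 and -1.14), and Eif3j2 was called in neither. Neither native call held without native GV replicate 1 (-0.72, adjusted p = 0.0543, and -0.35, adjusted p = 0.473), and that of Eif3j1 was also lost without either native MII library. Without sex-converted GV replicate 1 Eif3j1 was called lower in that line too (-1.33, adjusted p = 0.0171), and without native GV replicate 2 so was Eif3j2 in the native line (-1.07, adjusted p = 0.0292). Whether the change of these genes differs between the lines is given by the interaction term, which called neither.

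Eif3m and Eif3g had the largest eIF3 falls in both lines, followed by Eif3c in the native line and Eif3l in the sex-converted line. Eif3m, which with Eif3h, Eif3f, Eif3c, Eif3e, Eif3k, Eif3l and Eif3a forms the octamer at the core of the complex, had 74.0 and 68.9 CPM at GV and 3.82 and 0.810 at MII in the native line, and 59.8 and 66.5 at GV and 1.86 and 0.761 at MII in the sex-converted line. It fell by 4.90 on the log2 scale in the native line (SE 0.50, adjusted p = 9.86e-06) and fell by 5.61 in the sex-converted line (SE 0.54, adjusted p = 6.28e-06). Its values were -6.46 without native MII replicate 1 and -6.36 without sex-converted MII replicate 1, and -4.25 without native MII replicate 2. Eif3g, an RNA-binding subunit that acts in scanning, had 136 and 139.5 CPM at GV and 7.45 and 2.89 at MII in the native line, and 139 and 118 at GV and 4.60 and 2.38 at MII in the sex-converted line. Eif3g fell by 4.71 on the log2 scale in the native line (SE 0.41, adjusted p = 2.93e-06) and fell by 5.22 in the sex-converted line (SE 0.42, adjusted p = 2.01e-06). Eif3c had 174 and 118 CPM at GV and 9.93 and 4.51 at MII in the native line, and 131 and 147 at GV and 7.01 and 4.85 at MII in the sex-converted line. Eif3c fell by 4.32 on the log2 scale in the native line (SE 0.37, adjusted p = 2.92e-06) and fell by 4.55 in the sex-converted line (SE 0.38, adjusted p = 2.36e-06). In all 3 genes the GV and MII values were separated by at least an order of magnitude in the group means.

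Native MII replicate 1 had the highest MII value of these genes and of Eif3h and Eif3l. Eif3h had 96.7 and 60.9 CPM at GV and 8.79 and 1.97 at MII in the native line, and 58.1 and 77.5 at GV and 3.17 and 2.66 at MII in the sex-converted line. Eif3h fell by 3.84 on the log2 scale in the native line (SE 0.52, adjusted p = 6.32e-05) and fell by 4.54 in the sex-converted line (SE 0.55, adjusted p = 2.93e-05). Eif3l had 95.2 and 74.6 CPM at GV and 9.07 and 2.78 at MII in the native line, and 82.0 and 87.7 at GV and 3.50 and 3.04 at MII in the sex-converted line. Eif3l fell by 3.82 on the log2 scale in the native line (SE 0.42, adjusted p = 1.56e-05) and fell by 4.70 in the sex-converted line (SE 0.45, adjusted p = 5.83e-06). Without that library the native falls were larger, at -5.58 for Eif3g, -5.02 for Eif3c, -5.33 for Eif3h (-3.19 without native MII replicate 2), -4.94 for Eif3l, -4.84 for Eif3d and -3.46 for Eif3f. The direction was the same with and without that library.

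Eif3i was the exception in eIF3. This subunit, a WD-repeat protein that binds Eif3b and Eif3g, had 59.9 and 61.3 CPM at GV and 244 and 179.8 at MII in the native line, and 59.2 and 62.2 at GV and 191 and 194 at MII in the sex-converted line. Its MII libraries were all above its GV libraries, and it rose by 1.81 on the log2 scale in the native line (SE 0.20, adjusted p = 1.57e-05) and rose by 1.66 in the sex-converted line (SE 0.20, adjusted p = 2.73e-05). Because the other subunits fell, Eif3i made up 4.37% to 5.38% of eIF3 TPM at GV and 60.2% to 64.6% at MII. Its mRNA has the shortest 3′ UTR of the higher members, with 93 bases.

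In the cap-binding family, the oocyte form and Eif4e3 exchanged rank. Eif4e1b, expressed in oocytes and known to bind the cap weakly and to sit in complexes that hold mRNAs silent, was the most abundant member per length at GV, at 2465 to 2677 TPM, and 520 to 583 TPM at MII. It had 1212 and 1200.4 CPM at GV and 492 and 423 at MII in the native line, and 1197 and 1216 at GV and 442 and 476 at MII in the sex-converted line, with replicates within a few percent of each other at GV. It fell by 1.40 on the log2 scale in the native line (SE 0.15, adjusted p = 1.37e-05) and fell by 1.39 in the sex-converted line (SE 0.15, adjusted p = 1.39e-05), a 2.63-fold fall in each. Eif4e3, a cap-binding protein that does not bind the 4E repressors in the usual way, had 272 and 229 CPM at GV and 936 and 953 at MII in the native line, and 207 and 265 at GV and 903 and 888 at MII in the sex-converted line. It rose by 1.91 on the log2 scale in the native line (SE 0.18, adjusted p = 4.68e-06) and rose by 1.93 in the sex-converted line (SE 0.18, adjusted p = 4.64e-06), and at 977 to 1049 TPM it was the most abundant member per length at MII.

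The canonical Eif4e was not called in either line. It had 286 and 168 CPM at GV and 216 and 213 at MII in the native line, and 160.2 and 228 at GV and 215 and 239 at MII in the sex-converted line, and its GV libraries lay on both sides of its MII libraries. Its log2 fold change was -0.08 in the native line (95% interval -0.65 to 0.48) and 0.23 in the sex-converted line (-0.34 to 0.79), and with library totals alone it was -0.99 and -0.70 and called lower in both. Eif4e2, the 4EHP that represses rather than starts translation, had 20.9 and 20.2 CPM at GV and 5.92 and 4.17 at MII in the native line, and 26.3 and 21.8 at GV and 4.38 and 4.76 at MII in the sex-converted line. Eif4e2 fell by 2.02 on the log2 scale in the native line (SE 0.30, adjusted p = 0.000133) and fell by 2.39 in the sex-converted line (SE 0.30, adjusted p = 4.14e-05). As shares of the family's TPM, Eif4e1b went from 77.2% to 82.5% at GV to 31.2% to 34.9% at MII, and Eif4e3 from 12.8% to 15.5% at GV to 58.4% to 62.9% at MII. Eif4e itself held 4.15% to 6.84% at GV and 5.72% to 6.59% at MII. In TPM the sum of the 4 genes was 3108 to 3273 at GV and 1639 to 1672 at MII. This sum does not use the TMM factors, so its fall is not on the scale of the log2 fold changes above.

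The repressors that bind eIF4E moved in both directions. Eif4enif1 (4E-T), which holds eIF4E in stored ribonucleoproteins of the oocyte, was by far the most abundant, with 752 and 586 CPM at GV and 334 and 351 at MII in the native line, and 579 and 686 at GV and 359 and 412 at MII in the sex-converted line. It fell by 0.97 on the log2 scale in the native line (SE 0.18, adjusted p = 0.000704) and fell by 0.71 in the sex-converted line (SE 0.18, adjusted p = 0.0048). The sex-converted call was lost without GV replicate 2 (-0.55, adjusted p = 0.0572) or without MII replicate 1 (-0.62, adjusted p = 0.0533). Eif4ebp2, a small repressor released from eIF4E when mTOR phosphorylates it, had 33.0 and 67.7 CPM at GV and 189 and 195 at MII in the native line, and 70.8 and 53.6 at GV and 194 and 179.7 at MII in the sex-converted line. Eif4ebp2 rose by 1.93 on the log2 scale in the native line (SE 0.30, adjusted p = 0.000187) and rose by 1.59 in the sex-converted line (SE 0.30, adjusted p = 0.000696). Without native GV replicate 2 its native value was 2.54, and with library totals it remained called in the native line (1.01, adjusted p = 0.0149) and was lost in the sex-converted line (0.65, adjusted p = 0.087).

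Eif4ebp1, the repressor most often studied in other cells, was nearly absent: it had 1.17 and 1.34 CPM at GV and 4.87 and 2.20 at MII in the native line, and 1.43 and 2.44 at GV and 2.96 and 2.38 at MII in the sex-converted line, which are 19 to 51 reads. Its native rise (1.50, adjusted p = 0.0307) was 0.80 (adjusted p = 0.314) without native MII replicate 1 and was lost without either GV library too (1.41, adjusted p = 0.109, and 1.58, adjusted p = 0.0751). It was not called in the sex-converted line (0.45, adjusted p = 0.468; -0.47 with library totals). The native call was also lost with DESeq2 (adjusted p = 0.0514). Eif4ebp3 had 0 reads in all 8 libraries; 501 of its 744 exonic bases are shared on the same strand with the gene model AC115631.1, and how reads there were assigned is not given.

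**Figure D4:**
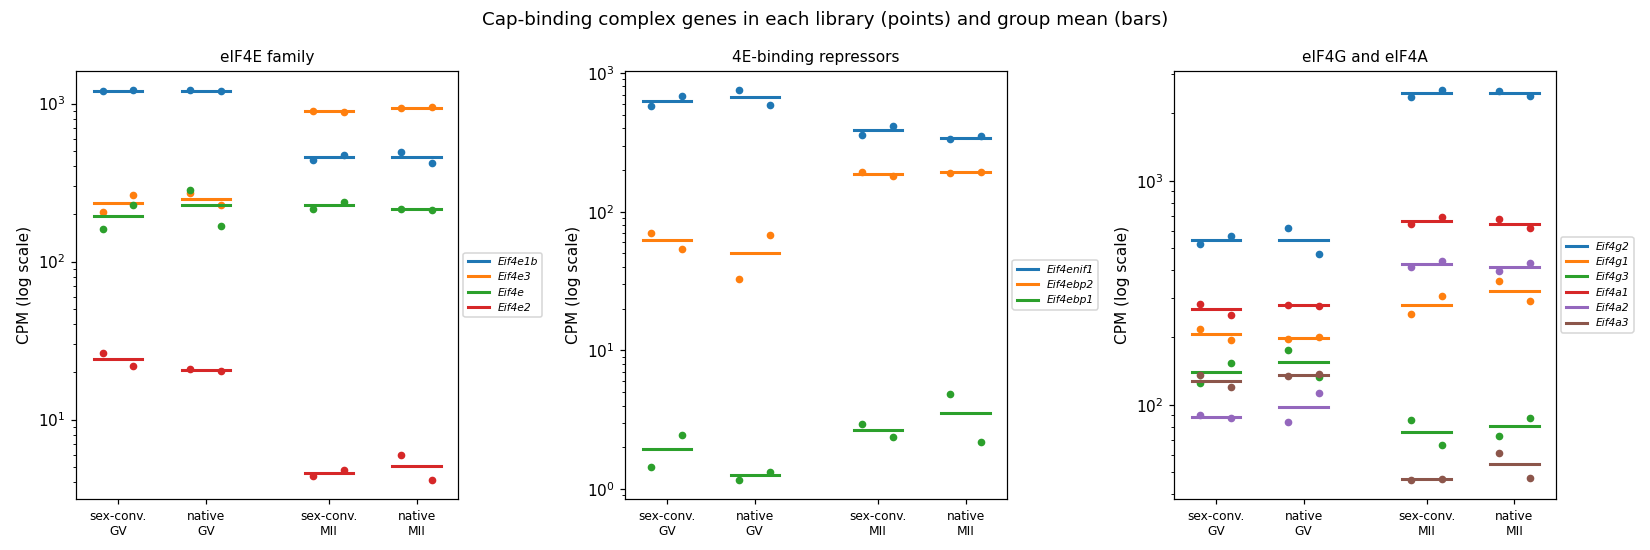
CPM (log scale) of the eIF4E family (left), the 4E-binding repressors (middle) and the eIF4G and eIF4A genes (right) in each library (points), with group means (bars), for both lines and stages. Eif4e3 lies below Eif4e1b at GV and above it at MII in every library, and Eif4g2 is the highest gene of the right panel at both stages.

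Among the scaffolds, Eif4g2 rose most. Eif4g2 (DAP5), a shortened eIF4G that lacks the eIF4E-binding region and serves initiation independent of eIF4E, had 617 and 473 CPM at GV and 2520.3 and 2396 at MII in the native line, and 525 and 569 at GV and 2374 and 2538 at MII in the sex-converted line. It rose by 2.17 on the log2 scale in the native line (SE 0.17, adjusted p = 1.43e-06) and rose by 2.17 in the sex-converted line (SE 0.17, adjusted p = 1.5e-06), which is 4.51-fold and 4.49-fold higher. Eif4g1, the main scaffold of cap-dependent initiation, had 197 and 201 CPM at GV and 356 and 291 at MII in the native line, and 219 and 194 at GV and 254 and 305 at MII in the sex-converted line. Its log2 fold changes of 0.70 (adjusted p = 0.00553, called) and 0.44 (adjusted p = 0.0524, not called) turned to -0.21 and -0.50 with library totals, and the latter was then called lower (adjusted p = 0.0304). The native call did not hold when MII replicate 1 was left out (0.54, adjusted p = 0.0741). Eif4g3 fell, with 177 and 133 CPM at GV and 72.4 and 87.8 at MII in the native line, and 125 and 154 at GV and 85.3 and 66.2 at MII in the sex-converted line. Its log2 fold changes were -0.95 and -0.89 (adjusted p = 0.00354 and 0.00542), and the sex-converted call was lost without GV replicate 2 (-0.70, adjusted p = 0.0547) or MII replicate 2 (-0.71, adjusted p = 0.0639). Eif4g2 held 54.0% to 58.6% of the TPM of the 3 scaffolds at GV and 81.8% to 84.6% at MII.

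Among the helicases, Eif4a2 rose past Eif4a3, which fell. Eif4a2, a close relative of Eif4a1 that is also linked to mRNA silencing, had 83.5 and 113 CPM at GV and 394 and 428 at MII in the native line, and 90.2 and 87.2 at GV and 413 and 437 at MII in the sex-converted line. Eif4a2 rose by 2.07 on the log2 scale in the native line (SE 0.19, adjusted p = 4.71e-06) and rose by 2.26 in the sex-converted line (SE 0.19, adjusted p = 2.79e-06). Eif4a1, the usual helicase of the cap complex, had 278 and 277 CPM at GV and 676 and 613 at MII in the native line, and 282 and 252 at GV and 639 and 689 at MII in the sex-converted line. Its rise of 1.21 and 1.32 became 0.30 and 0.38 with library totals and was then not called. Eif4a3, which despite its name works in the exon junction complex that splicing leaves on mRNAs, had 135 and 137 CPM at GV and 61.1 and 47.3 at MII in the native line, and 136 and 120.2 at GV and 46.4 and 46.9 at MII in the sex-converted line. Eif4a3 fell by 1.33 on the log2 scale in the native line (SE 0.20, adjusted p = 0.000162) and fell by 1.46 in the sex-converted line (SE 0.20, adjusted p = 8.53e-05). Eif4a3 held 43.2% to 44.4% of the TPM of the 3 helicases at GV and 8.40% to 11.1% at MII, and Eif4a2 held 10.9% to 14.2% at GV and 28.6% to 32.9% at MII. The helpers of the helicase fell: Eif4b fell by 1.80 on the log2 scale in the native line (SE 0.18, adjusted p = 8.61e-06) and fell by 1.76 in the sex-converted line (SE 0.18, adjusted p = 9.9e-06), and Eif4h by 3.61 and by 3.48, the latter at -4.27 without sex-converted MII replicate 1.

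Among the factors of start codon choice, Eif1 rose and Eif1b fell. Eif1, which keeps the scanning ribosome from settling on a wrong start codon, had 96.4 and 118 CPM at GV and 297 and 273 at MII in the native line, and 99.0 and 90.3 at GV and 276 and 293 at MII in the sex-converted line. Eif1 rose by 1.41 on the log2 scale in the native line (SE 0.18, adjusted p = 4.58e-05) and rose by 1.59 in the sex-converted line (SE 0.18, adjusted p = 2.04e-05). Its near relative Eif1b, the member with the second highest level per length at GV (1028 to 1232 TPM), had 302 and 263 CPM at GV and 125 and 144 at MII in the native line, and 229 and 278 at GV and 169 and 126 at MII in the sex-converted line. Eif1b fell by 1.08 in the native line (SE 0.21, adjusted p = 0.000805) and fell by 0.78 in the sex-converted line (SE 0.20, adjusted p = 0.00592), where the call was lost without GV replicate 2 (-0.61, adjusted p = 0.061) or MII replicate 2 (-0.58, adjusted p = 0.08). Eif1 made up 14.6% to 19.4% of the TPM of both at GV and 46.6% to 56.1% at MII, where it stayed below Eif1b in sex-converted replicate 1 and lay above it in the other 3 libraries. Eif1ax, the X-linked eIF1A, had 318 and 263 CPM at GV and 37.7 and 26.8 at MII in the native line, and 245 and 278 at GV and 33.7 and 36.6 at MII in the sex-converted line. Eif1ax fell by 3.17 on the log2 scale in the native line (SE 0.23, adjusted p = 1.03e-06) and fell by 2.90 in the sex-converted line (SE 0.22, adjusted p = 1.57e-06). Eif1ad, a relative of eIF1A known from ribosome assembly, fell by 3.12 and by 3.35, the native value being -3.88 without native MII replicate 1. Eif1a, the autosomal copy of Eif1ax, had 3 to 70 reads per library and was not called in either line, except that without native GV replicate 2 it was called higher in the native line (3.81, adjusted p = 0.00883).

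The 5 genes of eIF5, eIF5A, eIF5B and eIF6 gave 2 rises and 1 fall in each line (40% and 20%). Over all genes tested 29.6% rose and 35.7% fell in the native line, and 29.3% and 36.2% in the sex-converted line. Eif5a, which helps the ribosome through difficult peptide bonds and carries the amino acid hypusine, had 131 and 226 CPM at GV and 486 and 451 at MII in the native line, and 188 and 141 at GV and 406 and 495 at MII in the sex-converted line. Eif5a rose by 1.40 on the log2 scale in the native line (SE 0.26, adjusted p = 0.000618) and rose by 1.46 in the sex-converted line (SE 0.26, adjusted p = 0.000457). With library totals the changes were 0.48 and 0.52 and not called. Its relative Eif5a2 had 11 to 30 reads per library and was not called. Eif5b, the GTPase that joins the subunits, had 527 and 300.5 CPM at GV and 819 and 665 at MII in the native line, and 263 and 390.3 at GV and 674 and 672 at MII in the sex-converted line. Its log2 fold changes were 0.84 and 1.04 (adjusted p = 0.0159 and 0.00516), and they became -0.06 and 0.11 with library totals. Its native call did not hold without native GV replicate 2 (0.49, adjusted p = 0.0919) or MII replicate 1 (0.68, adjusted p = 0.104). Eif5, which makes eIF2 hydrolyse its GTP, was not called (0.14 and 0.39, turning to -0.77 and -0.54 with library totals and then called lower, adjusted p = 0.00534 and 0.0295). Eif6, which keeps the large subunit apart from the small one, had 124 and 247 CPM at GV and 28.5 and 17.7 at MII in the native line, and 257 and 131 at GV and 19.4 and 23.8 at MII in the sex-converted line. Its GV libraries spread widely, and all lay above all MII libraries. It fell by 3.00 on the log2 scale in the native line (SE 0.41, adjusted p = 7.31e-05) and fell by 3.17 in the sex-converted line (SE 0.41, adjusted p = 5.14e-05).

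The Eef genes fell with few exceptions. Of the 10 tested Eef genes 9 fell and 0 rose in the native line, and 8 fell and 1 rose in the sex-converted line. The falls are 90% and 80% of the tested Eef genes, beside 35.7% and 36.2% of all genes tested. The rise, in Eef1b2, turned negative with library totals. The eEF1 and eEF2 genes, with Eef1e1 counted among them, make up 6 of the 10, and 5 of them fell in each line (83.3%). The rest are Eef2k and methyltransferase genes. Eef1a1, which carries tRNAs to the ribosome and is among the most abundant mRNAs of most cells, had 514 and 453 CPM at GV and 51.4 and 21.9 at MII in the native line, and 402 and 469.9 at GV and 34.2 and 13.6 at MII in the sex-converted line, that is 814 to 945 TPM at GV and 15.1 to 54.3 TPM at MII. It fell by 3.72 on the log2 scale in the native line (SE 0.45, adjusted p = 2.83e-05) and fell by 4.20 in the sex-converted line (SE 0.46, adjusted p = 1.47e-05). The values were -4.48 without native MII replicate 1 and -5.01 without sex-converted MII replicate 1. Eef1d, a subunit of the eEF1B complex that recharges eEF1A, had 187 and 191 CPM at GV and 13.2 and 3.12 at MII in the native line, and 184 and 169 at GV and 7.88 and 3.99 at MII in the sex-converted line. It fell by 4.51 on the log2 scale in the native line (SE 0.51, adjusted p = 1.91e-05) and fell by 4.90 in the sex-converted line (SE 0.53, adjusted p = 1.31e-05). Its native value was -5.93 without native MII replicate 1 and -3.87 without replicate 2.

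Eef1g, the structural subunit of eEF1B, had 15.6 and 18.9 CPM at GV and 5.63 and 1.62 at MII in the native line, and 19.7 and 14.6 at GV and 3.72 and 0.190 at MII in the sex-converted line. It fell by 2.23 on the log2 scale in the native line (SE 0.74, adjusted p = 0.021) and fell by 3.17 in the sex-converted line (SE 0.80, adjusted p = 0.00474). DESeq2 did not call the native change (adjusted p = 0.11), which was -3.42 without native MII replicate 1 and -1.64 and not called without replicate 2 (adjusted p = 0.113). The sex-converted fall was -2.20 without MII replicate 2, and without MII replicate 1 only 2 reads remain at MII. Eef1b2, the catalytic subunit, stood apart from these, with 71.2 and 86.1 CPM at GV and 116 and 96.7 at MII in the native line, and 74.8 and 74.2 at GV and 109 and 109.8 at MII in the sex-converted line. Its log2 fold changes were 0.44 (adjusted p = 0.071) and 0.55 (adjusted p = 0.028), and they turned to -0.48 and -0.38 with library totals. Its sex-converted call was lost when any 1 of the 4 libraries was left out (0.54 to 0.58, adjusted p of 0.0794 to 0.108). Eef1e1, a scaffold protein of the tRNA synthetase complex, fell by 1.83 in the native line and fell by 1.09 in the sex-converted line, the latter not called without GV replicate 2 (-0.60, adjusted p = 0.191) or MII replicate 2 (-0.83, adjusted p = 0.121). Eef2, which moves the ribosome by 1 codon per cycle, had 198 and 281 CPM at GV and 55.2 and 29.5 at MII in the native line, and 270.2 and 208 at GV and 37.1 and 37.4 at MII in the sex-converted line. Eef2 fell by 2.50 on the log2 scale in the native line (SE 0.30, adjusted p = 2.98e-05) and fell by 2.68 in the sex-converted line (SE 0.30, adjusted p = 1.93e-05).

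The regulators of elongation fell too. Eef2k, the kinase that inactivates eEF2, had 336 and 455 CPM at GV and 182 and 146 at MII in the native line, and 435 and 352 at GV and 140.0 and 148 at MII in the sex-converted line. Eef2k fell by 1.27 on the log2 scale in the native line (SE 0.21, adjusted p = 0.000276) and fell by 1.45 in the sex-converted line (SE 0.21, adjusted p = 0.000107). The methyltransferase genes of eEF1A were scarce, at 0 to 6.74 CPM. Eef1akmt1 fell by 2.49 in the native line (-3.24 without MII replicate 2) and by 3.40 in the sex-converted line. Eef1akmt2 fell in the native line alone (-2.10, adjusted p = 0.0182, lost without GV replicate 2 or either MII library with adjusted p of 0.0581 to 0.0754, against -1.09, adjusted p = 0.142, and -2.14, adjusted p = 0.0452, without sex-converted MII replicate 1), and the difference between the lines was not called. Eef1akmt4 was called lower in both lines; in the sex-converted line it had 221 reads at GV and 2 at MII, a ratio of 58.2 with a 95% counting interval of 15.9 to 484, and native MII replicate 2 had 0 reads.

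No tested member was called between the lines. Between sex-converted and native oocytes edgeR called 0 of 63 members at GV and 0 at MII, where 0.0134% of all genes were called at each stage, and the line by stage interaction called 0, where 0% of all genes were called; DESeq2 also called 0 in each of the 3. At an unadjusted p under 0.05 there was 1 member in each comparison. Over all 14929 genes tested there were 319 at GV, 549 at MII and 329 in the interaction. The median size of the line difference was 0.12 on the log2 scale at GV and 0.21 at MII. The 95% interval of the difference lay within 2-fold in either direction for 49 of 63 members at GV, for 35 at MII and for 24 in the interaction, so for the others a difference of 2-fold cannot be told from none with 2 libraries per group. The lines did not overlap at GV in 8 of 63 members, against 23.5% of all genes.

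For the cap-binding genes, the difference between the lines in Eif4e1b was 0.00 at GV (95% interval -0.33 to 0.33) and 0.00 at MII (-0.32 to 0.33), and that in Eif4e3 was -0.09 (-0.47 to 0.29) and -0.08 (-0.45 to 0.30). For the X-linked members, Eif2s3x differed by 0.11 at GV (-0.59 to 0.82) and -0.39 at MII (-1.20 to 0.43), and Eif1ax by -0.15 (-0.60 to 0.30) and 0.12 (-0.35 to 0.60). The member with the smallest unadjusted p was Eif2b5 at MII, with 19 and 14 reads in native against 4 and 6 in sex-converted oocytes. Its difference was -1.74 (SE 0.51, adjusted p of 1 with edgeR) and its interaction -1.63 (SE 0.61, adjusted p of 1). At GV it was Eif1a, with 3 and 20 reads in native against 70 and 32 in sex-converted oocytes (adjusted p of 1). Eif2b5 and Eif1a were chosen for mention after their values were seen.

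**Figure D5:**
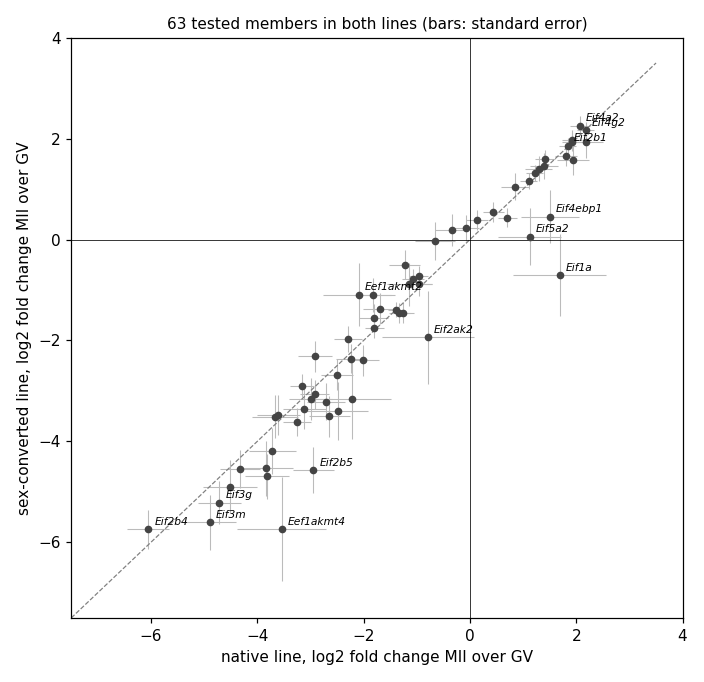
Log2 fold change from GV to MII in the native line (horizontal axis) against the sex-converted line (vertical axis) for the 63 tested members, with bars of 1 standard error and a dashed line of equal change. Most members lie near the line, from Eif2b4 at the lower left to Eif4g2 and Eif4a2 at the upper right; Eif2b5, Eif1a, Eif5a2 and Eef1akmt4, which lie off it, had few reads in some group.

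Genes that work with these factors were counted from a list of 73 symbols, of which 72 matched the table and 70 were tested. In the native line 20 rose and 33 fell (28.6% and 47.1%, beside 29.6% and 35.7% of all genes tested). In the sex-converted line 22 rose and 37 fell (31.4% and 52.9%, beside 29.3% and 36.2%). Between the lines 0 were called at either stage with edgeR. At an unadjusted p under 0.05 there were 1 at GV and 7 at MII, beside 319 and 549 of all 14929 genes. Among 18 cap and eIF4E regulators 7 rose and 6 fell in the native line (38.9% and 33.3%). In the sex-converted line 9 rose and 8 fell (50% and 44.4%). Larp4, which protects poly(A) tails, had 41.7 and 46.9 CPM at GV and 527 and 554 at MII in the native line, and 43.2 and 56.2 at GV and 495 and 551 at MII in the sex-converted line, with log2 fold changes of 3.61 and 3.39. Gigyf2, the partner of Eif4e2 in repression, had -3.51 and -3.11. Of 7 regulators of eIF4A and scanning 3 rose and 3 fell in each line (42.9% each). Ddx3x, a helicase of the leader, had 594 and 574 CPM at GV and 3433 and 3538 at MII in the native line, and 558 and 588 at GV and 3258 and 3543 at MII in the sex-converted line. Dhx29, a helicase for structured leaders, had log2 fold changes of -3.15 and -2.30. Of 4 poly(A)-binding proteins Pabpc1, Pabpc1l and Pabpc4 fell in both lines and Pabpn1l was not called, and of 3 proteins that bind them Paip1 rose, Paip2 fell and Paip2b was not called. Paip1, which joins the poly(A)-binding protein to eIF4A and eIF3, had 263 and 249 CPM at GV and 2230.0 and 2395 at MII in the native line, and 242 and 244 at GV and 2093 and 2354 at MII in the sex-converted line, with log2 fold changes of 3.18 and 3.19. Paip2, which displaces it from the tail, had -3.68 and -3.17.

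The arms that act on eIF2 or complete translation were mixed. Over all genes tested 29.6% rose and 35.7% fell in the native line, and 29.3% and 36.2% in the sex-converted line. The counts by role below were not tested against these shares. Of 7 genes for eIF2 phosphatases and the stress response, 2 rose and 3 fell in the native line and 3 rose and 4 fell in the sex-converted line. Dnajc3, an inhibitor of eIF2-alpha kinases, had 2.16 and 2.29, and Ppp1r15a, which brings a phosphatase to eIF2-alpha, had 1.82 and 1.88. Ddit3, the transcription factor CHOP of the same response, had -3.28 and -4.63. In termination and recycling 1 of 10 tested genes rose and 5 fell in each line, and Etf1, the release factor that reads stop codons, had 149 and 142 CPM at GV and 23.7 and 18.8 at MII in the native line, and 133 and 158 at GV and 28.6 and 21.4 at MII in the sex-converted line (-2.77 and -2.54). Of 8 tested genes that make hypusine or diphthamide, the modified residues of eIF5A and eEF2, 0 rose, 6 fell in the native line and 7 in the sex-converted line. In selenocysteine elongation Eefsec, the dedicated elongation factor, had -5.23 and -6.16, while Secisbp2 and Secisbp2l rose in both lines. Of 10 mitochondrial translation factors 4 rose and 5 fell in the native line and 3 and 5 in the sex-converted line. Mtif3, which encodes a mitochondrial initiation factor, had -4.88 and -5.04.

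Some values carry a doubt from the gene models. An exon of 29 members overlaps an exon of another gene, on the other strand in 19 of them and with a protein-coding gene on the same strand in 4, and no source used here gives the strand of counting. For Eif5b 1643 of 9753 exonic bases lie opposite Rev1, for Eif2ak1 487 of 5670 opposite Aimp2, and for Eif4a2 194 of 5338 opposite Rfc4. Reads of Eif1a and Eif1ax, Eif3j1 and Eif3j2, and of Eef1a1, Eif4a1 and other members with processed pseudogenes may have been split or lost, since how reads with several matches were treated is not given either. Finally, Mettl13 and Gm8994 have RefSeq symbols of this family (Eef1aknmt and Eif4a3l1) but not in the annotation used, had at most 20 reads in any library, and were not counted as members.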

How the data were processed

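The authors deposited 1 table of raw read counts with a row for each of 55385 genes; per the labels' protocols the libraries were stranded, amplified by 13 PCR cycles and read as single reads of 75 bases. Per the submitters' processing notes, Trimmomatic 0.38, HISAT2 2.1.0, featureCounts 2.0.0, DESeq2 1.30.1 and build mm10 are named; the strand and multimapping settings of counting, and the annotation, are not given in the sources here. Names and coordinates were taken from GENCODE M21 (GRCm38), to which 55144 genes matched.

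All 8 libraries were fitted together with edgeR 4.0.16 in R 4.3.3 (TMM, filterByExpr with a minimum count of 10, quasi-likelihood F test, 1 coefficient per group, 4 residual degrees of freedom). P-values were two-sided and Benjamini-Hochberg adjusted over the 14929 genes tested, and a gene was called under 0.05; a standard error is the size of the log2 fold change divided by the root of F. DESeq2 1.42.0, RLE factors, library totals, other filters, a replicate block and leaving out each library were alternatives. TPM was computed from counts and exon lengths. The scripts were tested on simulated data.

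The labels call the libraries biological duplicates without naming separate cultures, so p-values measure the spread between these libraries, which may be technical. Replicates of a group differed by more than sampling noise (chi-square of 9.87 to 38.7 per degree of freedom). The members, roles and the partner list were chosen with earlier results of these data known. Values per library are given for the 6 called members with the largest change in each direction and line at a mean of at least 10 CPM, for a fixed list of cap, eIF2, eEF and kinase genes, for the 2 most abundant members per stage and for any member that differed between lines; others were added for their role. Partner genes are up to 2 called per role and direction. A sequence window of 1 member is not reported here.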

Additional observations from a re-analysis of the deposited data

How the results depend on the processing

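Scaling was the choice that mattered most. With library totals only, the members called higher dropped to 9 in the native line and 8 in the sex-converted line, and over all genes the split went from 4414 higher and 5327 lower to 2488 and 7614 in the native line, and from 4374 and 5408 to 2372 and 7785 in the sex-converted line. That scaling turned the sign of 4 members in the native line, Eif4g1 (-0.21), Eif5b (-0.06), Eef1b2 (-0.48) and Eif5 (-0.77). In the sex-converted line it turned 7, Eif4g1 (-0.50), Eef1b2 (-0.38), Eif5 (-0.54), Eif4e (-0.70), Eif4ebp1 (-0.47), Eif5a2 (-0.88) and Eif2s2 (-0.74). It newly called lower Eif5, Eif4e and Eif3j2 in both lines, Eif2s2 in the native line, and Eif2ak2, Eif3a, Eif3j1, Eif4g1 and Eef1akmt2 in the sex-converted line. Leaving out 1 library gave 13 to 16 higher and 36 to 40 lower members in the native line, 14 higher and 32 to 37 lower in the sex-converted line, and 0 in the line comparisons and the interaction. It turned the sign of no called member, and of these uncalled ones: in the native line Eif4e (-0.42 to 0.37), Eif5 (-0.06 to 0.39) and Eif2s2 (-0.77 to 0.28), and in the sex-converted line Eif1a (-1.69 to 0.17), Eif5a2 (-0.36 to 0.36), Eif2s2 (-0.14 to 0.66) and Eif3j2 (-0.37 to 0.24). An alternative with 1 library in a group assumes that it varies like the others.

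Replicate numbers did not pair the samples (correlations of same-numbered deviations of -0.41 to 0.158 over 6 group pairs). With a replicate block, 15 higher and 39 lower members were called in the native line (Eif4ebp1 was lost, adjusted p = 0.0521). In the sex-converted line 14 and 36 were called (Eef1b2 was lost, adjusted p = 0.0504). Over all genes the block gave 4202 higher and 5086 lower in the native line and 4201 and 5149 in the sex-converted line. A crossed pairing of the GV libraries, chosen after seeing the data, called 0 members between the lines and 18 higher and 5 lower of all genes. DESeq2 called 15 higher and 38 lower members in the native line and 15 and 36 in the sex-converted line. Over all genes it called 4334 and 5003, and 4296 and 5020. With RLE factors 17 and 39 members were called in the native line and 16 and 36 in the sex-converted line. Over all genes these factors gave 4495 and 5256, and 4486 and 5303. The pyrimidine run was found in 33.3% of members within 10 bases of the start. Depth limits Eif2ak2, Eif1a, Eif5a2, Eif4ebp1 and the methyltransferase genes, which had few reads.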
